A study of Homo sapiens with 2 samples.

Results

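Heat shock proteins and their DNAJ partners are molecular chaperones, and this account follows their transcripts in Panc1 cells, an established human pancreatic ductal carcinoma line. The treated cells had 24 h of clofibrate, a lipid-lowering fibrate and PPARalpha agonist, and the control cells had 24 h of DMSO. The labels call both a pretreatment, and whether a later step followed is not known here. There was 1 clofibrate array and 1 DMSO array, and the sources used here give no dose. Members were all transcript rows whose gene name in the files began with HSPA, HSPB, HSPC, HSP90, HSPD, HSPE or HSPH, or with DNAJA, DNAJB or DNAJC and a digit. This took 178 of 45033 rows and 86 of 23596 genes.

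Of the 86 genes, 16 (31 rows) carry HSPC followed by a number, a clone name whose current symbols, such as WDR91 and TRMT112, are not those of heat shock proteins. A further 2, HSPBP1 and HSPBAP1, bind heat shock proteins and are not chaperone family members. The remaining 68 genes (141 rows) are called chaperone genes here, and the 18 others were counted apart. They comprise 31 genes of the HSP families and 37 DNAJ genes.

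Values are intensities summarised by the authors with RMA and converted to log2, and a gene's level was the mean of its rows. A difference is the log2 level with clofibrate minus that with DMSO. A gene is called bright if its mean over both arrays reached the all-gene median (8.51), a filter that does not favour either array. It kept 45 of the 68 chaperone genes, 23 of the HSP families and 22 DNAJ genes. Without replicates there is no check on any difference, and no test was run. Beside a gene's difference stands the SD of the difference over all genes of like level, which mixes array error with real differences between genes. The random probes, which measure background, read 5.59 on the clofibrate array and 5.61 on the DMSO array. Of 8 duct and simple epithelium markers 3 were bright, among them the keratins KRT8 (9.64 and 9.64) and KRT18 (9.51 and 9.41, clofibrate and DMSO), while KRT19 read 5.12 with clofibrate and 5.65 with DMSO. Of 25 markers of acinar, islet, liver, stromal, endothelial and blood cells 4 were bright. RNA of a cell line does not tell fewer expressing cells from less RNA per cell.

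Chaperones bind unfolded or newly made proteins and help them to fold, to reach their compartment or to be degraded. HSP70 proteins do this in cycles of ATP hydrolysis that J-domain proteins (the DNAJ genes) start and HSP110 proteins reset by nucleotide exchange. HSP90 acts later on kinases, receptors and other clients, HSP60 with HSP10 forms a folding chamber in mitochondria, and small HSPs hold unfolded proteins without ATP. Many of these genes are induced by heat shock factor 1 (HSF1), which binds repeats of the unit GAA and its complement TTC, the heat shock element.

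Promoter windows show which of the matched members have exact letters of that element near a start. RefSeq windows (GRCh38.p14, 250 bases before to 50 after a start) were matched for 57 of the 68 chaperone genes, which have 75 windows. The letters GAANNTTC or TTCNNGAA, each its own reverse complement, were searched in all of them. They were in a window of 21 of the 57 genes (36.8%), against 16.2% of all 27305 genes in the table. A longer element has another unit, as GAANNTTC followed by NNGAA, or TTCNNGAA followed by NNTTC. These are reverse complements of each other and contain both shorter ones. They were in 7 genes (12.3%), against 0.608% of all genes. A match is a description of the letters and not a measured binding site. The 250 bases before the start are shown for 3 genes with the longer element and for HSPA1A, which has the shorter one. HSPA1A read higher with clofibrate (0.26) and HSP90AB1 lower (-0.32), while the means of the rows of HSP90AA1 and HSPA8 were near 0 (-0.07 each). The 4 HSP90AA1 rows ran from -0.37 to 0.38, with the brightest at -0.37. All matches are in capitals.
HSP90AB1: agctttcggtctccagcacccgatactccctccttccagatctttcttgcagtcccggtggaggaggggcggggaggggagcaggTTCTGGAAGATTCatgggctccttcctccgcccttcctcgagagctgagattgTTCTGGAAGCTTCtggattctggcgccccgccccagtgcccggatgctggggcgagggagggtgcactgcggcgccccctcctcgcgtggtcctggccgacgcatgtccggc
HSP90AA1: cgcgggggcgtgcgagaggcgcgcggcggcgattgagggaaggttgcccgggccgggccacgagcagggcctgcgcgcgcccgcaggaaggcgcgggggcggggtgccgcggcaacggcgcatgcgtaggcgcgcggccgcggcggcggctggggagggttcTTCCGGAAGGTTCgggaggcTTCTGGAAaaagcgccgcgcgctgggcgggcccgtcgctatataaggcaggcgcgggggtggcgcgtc
HSPA8: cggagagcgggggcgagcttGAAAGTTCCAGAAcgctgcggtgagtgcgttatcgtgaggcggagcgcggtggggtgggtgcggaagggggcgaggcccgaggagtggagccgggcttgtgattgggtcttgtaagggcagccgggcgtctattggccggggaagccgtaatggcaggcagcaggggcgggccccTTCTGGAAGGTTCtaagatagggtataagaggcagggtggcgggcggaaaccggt
HSPA1A: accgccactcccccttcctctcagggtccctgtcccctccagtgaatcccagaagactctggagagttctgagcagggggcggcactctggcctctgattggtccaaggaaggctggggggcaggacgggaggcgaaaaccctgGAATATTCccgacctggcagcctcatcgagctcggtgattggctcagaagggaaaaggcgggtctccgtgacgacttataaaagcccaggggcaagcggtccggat
These lie at chr6:44247693-44247942 (plus strand), chr14:102087045-102087294 (minus strand), chr11:123062137-123062386 (minus strand) and chr6:31815293-31815542 (plus strand). The nearest match began 107 bases before the start in HSP90AB1, 68 in HSP90AA1, 50 in HSPA8 and 106 in HSPA1A. The 7 genes with the longer element were all bright, and 6 of them read lower with clofibrate: HSPD1 (-0.47), HSP90AB1 (-0.32), DNAJA1 (-0.25), HSP90AA1 (-0.07), HSPA8 (-0.07) and DNAJB6 (-0.06). HSPA6 was at 0.01, the mean of rows at 0.47 and -0.45, and the median of the 7 was -0.07. As means of their rows, HSP90AA1, HSPA8, DNAJB6 and HSPA6 differed by less than the SD of genes of like level (0.21 to 0.22). By the brightest row alone, HSP90AA1 (-0.37) and HSPA6 (-0.45) differed by more than it. Of the 14 bright genes with the shorter letters 10 lay below 0 (median -0.07), and of the 22 matched bright genes without them 14 did (median -0.12).

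Across the chaperone genes, most HSP family members read slightly lower with clofibrate, and the DNAJ genes were spread on both sides of 0. Of the 23 bright HSP family genes 20 lay below 0 (87.0%), with a median of -0.20. Of the 22 bright DNAJ genes 12 did (54.5%), with a median of -0.05. Among all 11798 bright genes 47.9% lay below 0 and the median was 0.01. Above the 75th percentile of level, a range that holds 20 of the HSP genes, 17 of those 20 lay below 0, against 45.4% of all genes there. Without the filter on level, 24 of 31 HSP family genes and 21 of 37 DNAJ genes lay below 0, against 49.6% of all genes. Members of a family share sequence, and 6 of the 23 HSP genes are HSP90 pseudogenes, so they are not independent points. Without the pseudogenes the median of the HSP genes was -0.20 over 17 genes.

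No bright chaperone gene differed 1.5-fold in either direction. The background over bright genes was 1.31% for a 1.5-fold higher level, 1.32% for a 1.5-fold lower level and 0.246% for 2-fold either way, so a count of 0 in 45 genes is near it. By a smaller step, chosen after the values were seen, 14 of the 45 bright chaperone genes were lower by more than the SD of genes of like level. Of all bright genes 14.7% were. The 14 held 10 HSP genes (43.5% of 23) and 4 DNAJ genes (18.2% of 22). Higher by more than that SD were 2, HSPA1A and DNAJB12, against 15.0% of all bright genes.

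**Figure D1:**
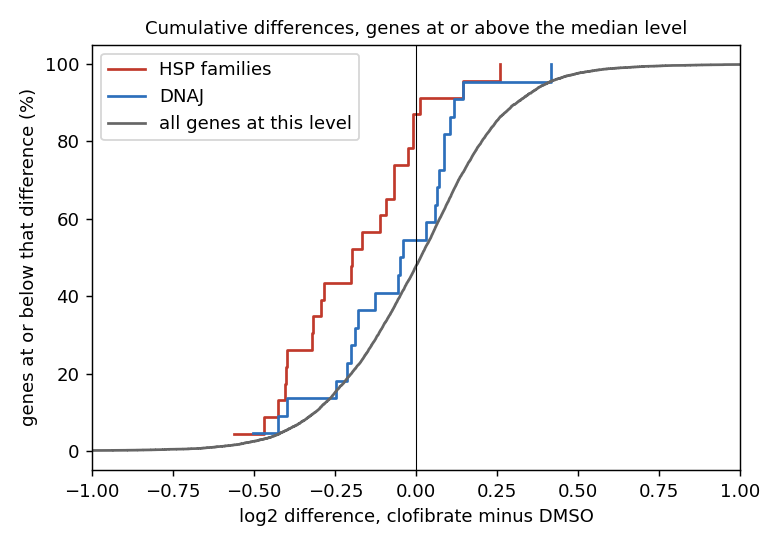
Cumulative share (%) of bright genes at or below a given log2 difference, clofibrate minus DMSO, for 23 HSP family genes, 22 DNAJ genes and all 11798 bright genes. The HSP curve reaches 87.0% at 0, the DNAJ curve 54.5% and the curve of all genes 47.9%.

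**Figure D2:**
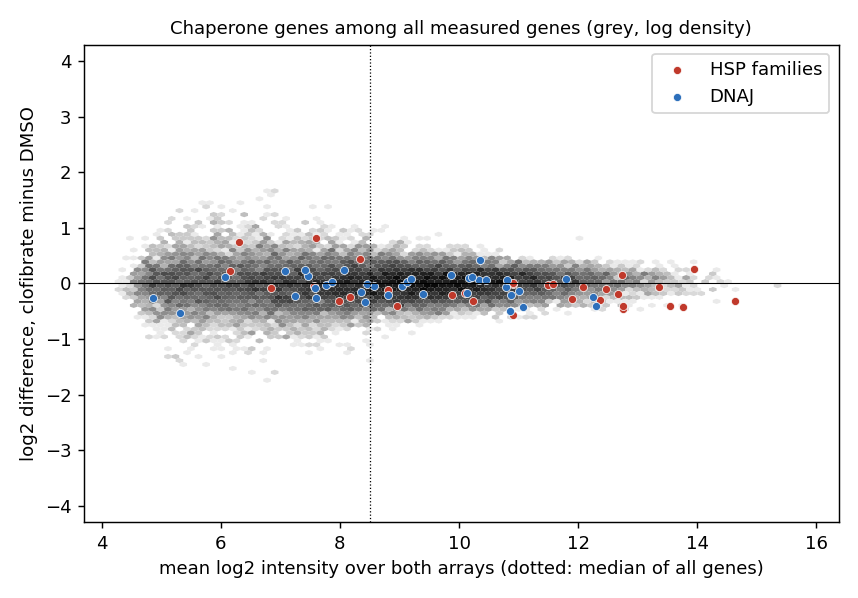
Log2 difference (clofibrate minus DMSO) against mean log2 intensity of both arrays, for all genes as grey density and the 68 chaperone genes as points. HSP family points right of the dotted median lie mostly below 0, and the points furthest from 0 in the upward direction (HSPB7 and HSPB9) lie left of it.

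At the level of single rows, 104 of the 141 chaperone rows were bright, of which 70 lay below 0 and 34 above it, against 48.7% of all bright rows below 0. Of these 104 rows, 2 were higher by 1.5-fold or more and 4 lower. The shares of all bright rows were 2.28% and 2.24%. Several rows of one gene did not always give the same sign. Among 27 genes with more than 1 bright row, the rows of 15 had one sign. The intraclass correlation of the differences, the share of their variance that rows of one gene hold in common, was 0.349 for these genes and 0.256 for all genes with several bright rows.

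**Figure D3:**
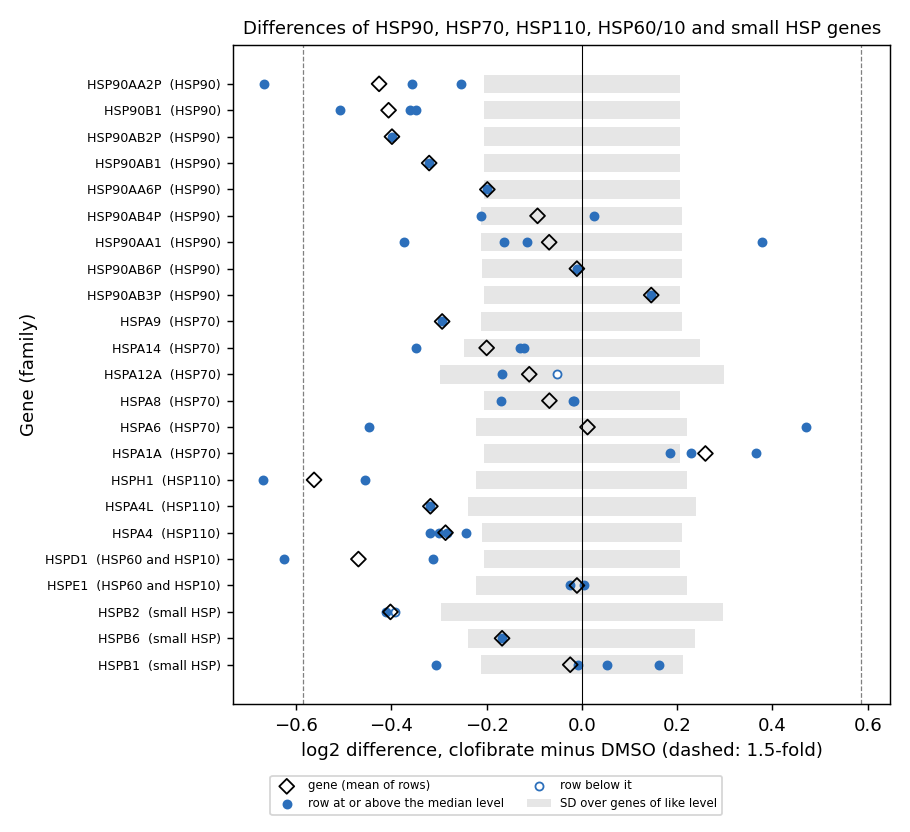
Log2 difference, clofibrate minus DMSO, of each transcript row (circles) and each gene (diamonds) for the 23 bright HSP family genes. Grey bars span 1 SD of genes of like level on each side of 0. That SD is of gene differences and not of single rows, so the bar is a measure for the diamonds only. Both HSPH1 rows and all 3 HSP90B1 rows lie left of 0, and the 3 HSPA1A rows lie right of it.

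Among the members, the HSP110 family, which exchanges the nucleotide of HSP70 and holds unfolded protein, was the family in which every row read lower. This held for 7 of 7 rows in 3 genes, 4 of these rows from HSPA4, against 48.7% of all bright rows below 0. HYOU1, an HSP110 relative outside the rule, had rows at -0.20 and 0.30. HSPH1, also called HSP105, had 10.28 and 10.97 with clofibrate for its transcripts NM_006644 and AB003333, against 10.95 and 11.43 with DMSO. Both rows were lower, and their mean difference of -0.56 (1.48-fold lower; SD of genes of like level 0.22) was the furthest from 0 of any bright chaperone gene. Only 1.57% of bright genes had a difference that low or lower. The gene lies on chromosome 13 from 30608761 to 30634117 (hg18). HSPA4, also called APG-2, differed by -0.29, and its 4 rows kept within -0.32 and -0.24. HSPA4L, a relative of HSPA4 abundant in testis, read 10.07 with clofibrate and 10.39 with DMSO on its single row (-0.32; SD 0.24).

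HSP60 and HSP10 are the barrel and the lid of one chaperonin, and their genes stand head to head on chromosome 2, but they read differently here. HSPD1, which encodes HSP60, had 11.91 and 13.14 with clofibrate on its 2 rows, against 12.53 and 13.45 with DMSO. Both were lower, by -0.62 and -0.31, and the gene difference was -0.47 (SD of genes of like level 0.21). HSPE1, which encodes HSP10, had 10.87 and 10.93 with clofibrate against 10.87 and 10.95 with DMSO, a difference of -0.01. In hg18 the longest HSPD1 row ended at 198072885 and the first HSPE1 row began at 198073291. Each row rests on 3 probes, and the difference between the 2 genes was not tested.

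Most HSP90 rows read lower, 14 of 17, all of them bright, against 48.7% of all bright rows below 0. The 17 include rows of the pseudogenes treated below, so they are not independent. HSP90B1, the HSP90 of the endoplasmic reticulum (GRP94), had 12.46, 13.59 and 13.98 with clofibrate on its 3 rows, against 12.97, 13.93 and 14.34 with DMSO. Every row was lower and the gene difference was -0.41 (SD 0.21; chromosome 12). HSP90AB1, the constitutive cytosolic form, read 14.48 with clofibrate and 14.80 with DMSO on 1 row (-0.32; SD 0.21; chromosome 6, 44322826 to 44329592). HSP90AA1, the inducible cytosolic form, was nearer to 0 as a gene (-0.07), and its 4 rows differed. Its 2 RefSeq rows, NM_005348 and NM_001017963, read 14.46 and 14.56 with clofibrate against 14.84 and 14.72 with DMSO, so both were lower (-0.37 and -0.16). Its dimmest row, BX247955, read 8.82 with clofibrate and 8.44 with DMSO (0.38). With the brightest row alone the gene was at -0.37.

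The 6 HSP90 pseudogenes among the members resemble their parents in sequence, so their rows may carry parent transcript. HSP90AA2P was at -0.43, with its 3 rows between -0.67 and -0.25, HSP90AB2P at -0.40, HSP90AA6P at -0.20, HSP90AB4P at -0.09 and HSP90AB6P at -0.01. HSP90AB3P was at 0.15. With the pseudogenes the HSP90 median was -0.20 over 9 genes, and over HSP90AA1, HSP90AB1 and HSP90B1 alone it was -0.32.

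HSP70 genes, the central ATP-driven chaperones, showed no common direction, with 4 of 6 bright genes below 0 and 2 above. HSPA1A, the main heat-inducible HSP70, was the one bright HSP gene higher by more than the SD of genes of like level. Its 3 rows read 12.98, 14.33 and 14.95 with clofibrate, against 12.79, 13.96 and 14.72 with DMSO. All were higher, and the gene difference was 0.26 (1.20-fold; SD 0.21). Of those rows, 2 lie on chromosome 6 at 31891298 to 31893698 (hg18) and the third at 31903666 to 31906010. HSPA1A and HSPA1B are nearly identical neighbours, so these rows cannot be assigned to 1 of them with certainty.

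Other inducible or constitutive HSP70 genes lay on both sides of 0. HSPA6, a strictly heat-inducible HSP70, had rows of opposite sign (0.47 and -0.45), which gave 0.01 for the gene. HSPA8, the constitutive HSC70, was at -0.07, with its 3 rows between -0.17 and -0.02. HSPA9, the mitochondrial HSP70 (mortalin), read 12.22 with clofibrate and 12.52 with DMSO on 1 row (-0.29; SD 0.21). HSPA14, an HSP70 that works at the ribosome, was at -0.20 with all 3 rows below 0, and HSPA12A, a divergent HSP70, at -0.11. HSPA5, the HSP70 of the endoplasmic reticulum (BiP), was dim on its single row, at 7.55 with clofibrate and 7.59 with DMSO. The other dim HSP70 genes were HSPA2, known from testis, at -0.24, HSPA1L at -0.08 and HSPA12B at 0.44.

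Bright small HSP genes were 3 of 7. HSPB1, the widely expressed HSP27, was at -0.02, with its 4 rows between -0.31 and 0.16. HSPB2, found mainly in muscle, was lower on both rows (9.35 and 8.16 with clofibrate, 9.76 and 8.55 with DMSO; -0.40, SD 0.30), and HSPB6 was at -0.17. Of all 68 chaperone genes, 2 differed at least 1.5-fold, the dim HSPB7 and HSPB9, both higher. Over all genes, bright and dim together, 4.53% were at least that much higher and 4.62% at least that much lower. Among bright genes alone these shares were 1.31% and 1.32%. HSPB9, known from testis, read 8.66 and 7.36 with clofibrate, against 7.75 and 6.65 with DMSO on its 2 rows (0.81; SD of genes of like level 0.44). HSPB7, known from heart, read 6.67 with clofibrate and 5.93 with DMSO on 1 row (0.75; SD 0.49). The other dim ones were HSPB8, a partner of BAG3, at -0.31 and HSPB3 at 0.23. Over all 12 small HSP rows 6 lay below 0 and 6 above. Such dim values lie where differences between the arrays were widest.

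**Figure D4:**
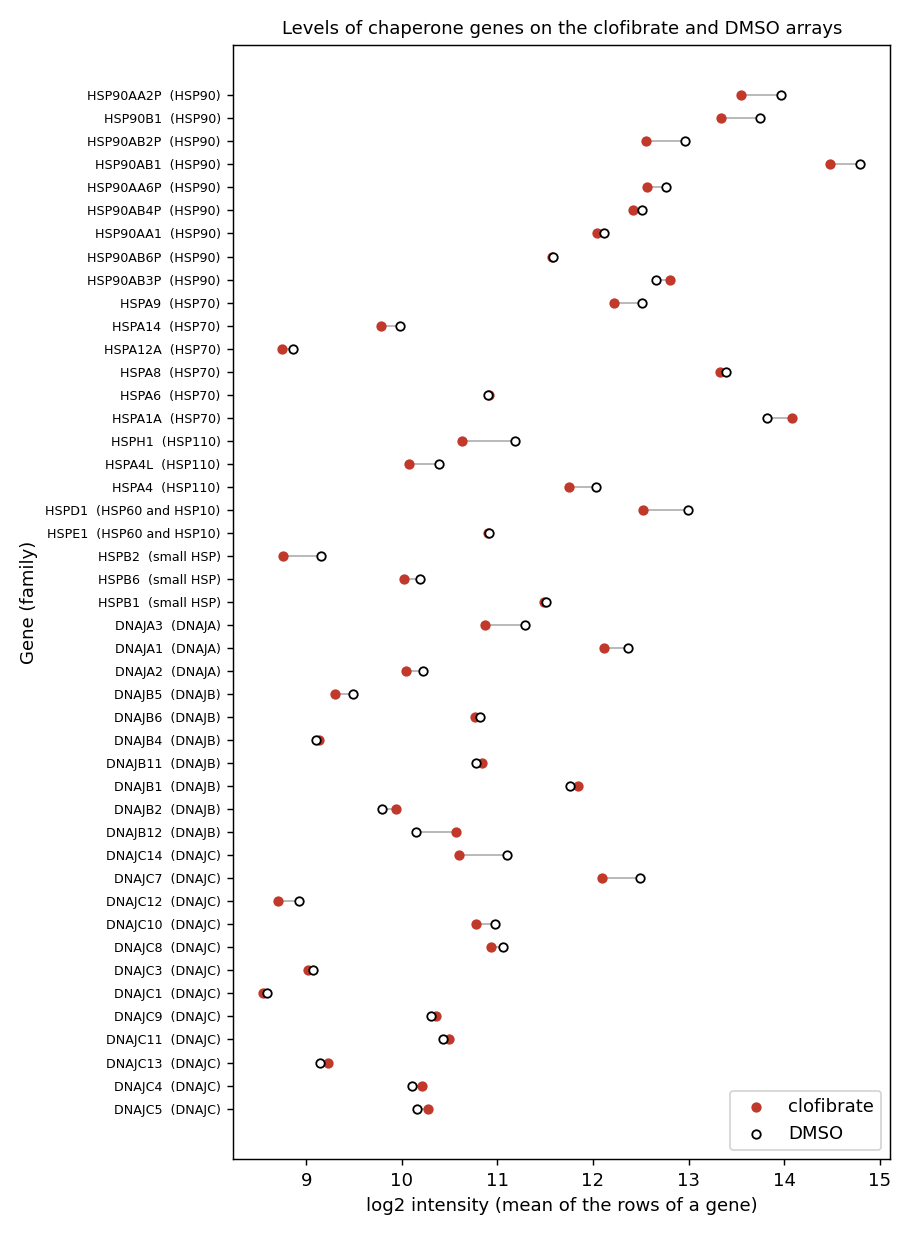
Log2 intensity of the 45 bright chaperone genes on the clofibrate array (red) and the DMSO array (open), by family. Levels of different genes come from different probes and are not comparable, so only the 2 points on a line are to be compared. All 3 HSP110 genes have the red point on the left, and HSPA1A and DNAJB12 have it on the right.

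J-domain proteins bring clients to HSP70 and start its ATP hydrolysis, and classes A, B and C differ in the domains outside the J domain. In class A, all 3 bright genes of 4 read lower. DNAJA3, the mitochondrial TID1, read 10.87 with clofibrate and 11.29 with DMSO on 1 row (-0.43; SD 0.22). DNAJA1 had 11.96 and 12.28 with clofibrate, against 12.36 and 12.37 with DMSO (-0.25), and DNAJA2 was at -0.18 with rows at -0.35 and -0.01. DNAJA1 and DNAJA2 are cytosolic partners of HSC70. The dim DNAJA4 was at 0.13, with 1 dim row of 4 more than 1.5-fold higher (0.62).

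In class B, 5 of 7 bright genes lay above 0. DNAJB12, a membrane J-protein of the endoplasmic reticulum, read 9.86, 10.29, 10.91 and 11.22 with clofibrate on its 4 rows, against 9.76, 9.68, 10.35 and 10.82 with DMSO. Every row was higher, by 0.10 to 0.61, and the gene difference of 0.42 (1.33-fold; SD 0.22; chromosome 10) was the highest of any bright chaperone gene. DNAJB2, a J-protein rich in neurons, had rows on both sides of 0, between -0.61 and 0.82 and its brightest row at 0.00. DNAJB1 (HSP40), the heat-inducible partner of HSPA1A, was at 0.09 on both rows. DNAJB5 was at -0.19. The dim DNAJB7 had rows at 0.73 and -0.48, of which the first lay below the random probes on both arrays.

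**Figure D5:**
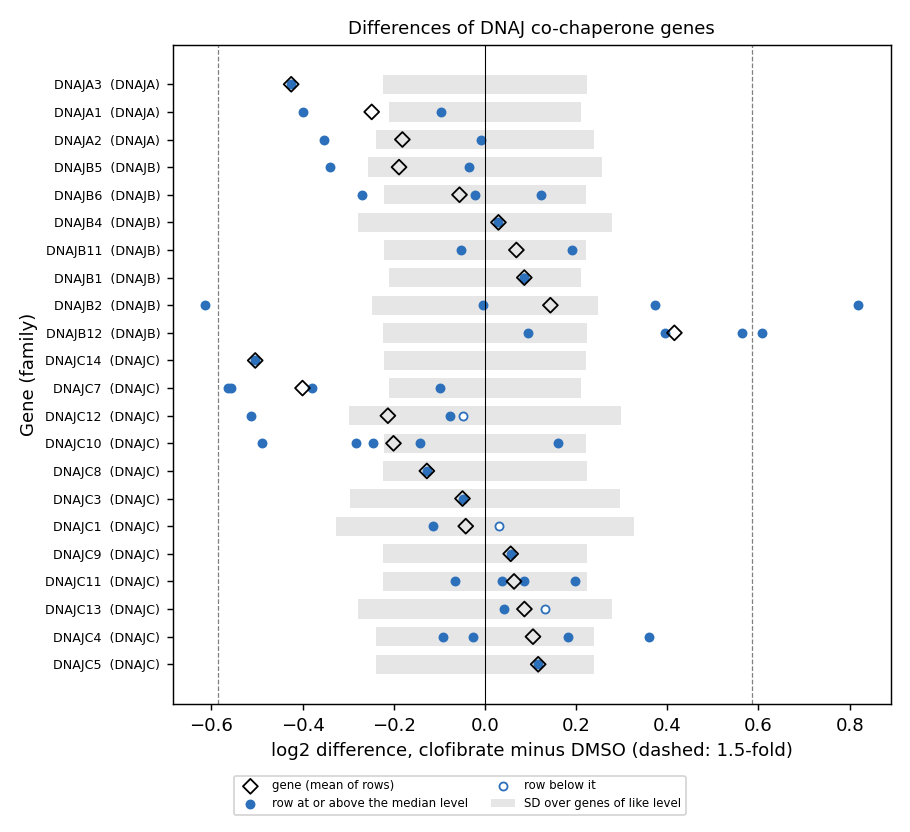
Log2 difference, clofibrate minus DMSO, of each transcript row (circles) and each gene (diamonds) for the 22 bright DNAJ genes. Grey bars span 1 SD of genes of like level on each side of 0. That SD is of gene differences and not of single rows, so the bar is a measure for the diamonds only. The 4 DNAJB12 rows lie right of 0, the 4 DNAJC7 rows left of it, and the DNAJB2 rows run from -0.61 to 0.82.

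Class C, which shares only the J domain, had 7 of 12 bright genes below 0 and 5 above. DNAJC14, which takes part in the export of receptors, read 10.60 with clofibrate and 11.10 with DMSO on its single row (-0.50; SD 0.22). DNAJC7 (TPR2), which binds both HSP70 and HSP90, had 11.59, 11.73, 12.44 and 12.63 with clofibrate on its 4 rows, against 12.15, 12.11, 13.00 and 12.73 with DMSO. All 4 were lower and the gene difference was -0.40 (SD 0.21; chromosome 17). DNAJC10, a reductase partner of BiP, was at -0.20, with 4 of 5 rows below 0, and DNAJC12 was at -0.21. The dim DNAJC16 was at -0.16 and the dim DNAJC21 at 0.24, each with rows of both signs. DNAJC8, a splicing-associated J-protein, was at -0.13, and the other 7 bright class C genes lay between -0.05 and 0.12.

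The 15 dim DNAJ genes ran between -0.53 (DNAJB9) and 0.25 (DNAJC18). Over all 141 chaperone rows, dim ones included, 8 were higher by 1.5-fold or more and 5 lower. For all transcript rows these shares were 6.41% and 6.42%.

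By compartment, medians lay between -0.15 and -0.05. Among all bright genes 47.9% lay below 0 and the median was 0.01. Of 12 bright genes on a list of cytosolic and other stress-inducible members 8 lay below 0 (median -0.05), with HSPH1 at one end and HSPA1A at the other. On the endoplasmic reticulum list 4 of 5 bright genes lay below 0 (median -0.05): HSP90B1, DNAJC10, DNAJC3 and DNAJC1, with DNAJB11 above it. That list leaves out membrane J-proteins of the same compartment, among them DNAJB12 (0.42) and DNAJC14 (-0.50). On the mitochondrial list 4 of 6 did (median -0.15), among them HSPD1, DNAJA3 and HSPA9, and 2 lay above it, the highest at 0.11. Mitochondrial genes outside the rule are not on that list and lay on both sides of 0. Among them were CLPB (0.40), TRAP1 (0.21), HSCB (0.10), GRPEL1 (-0.07) and GRPEL2 (-0.25).

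Of the chaperone system's other genes, 39 were measured and 34 were bright. The list holds heat shock factors, nucleotide exchange factors, HSP90 co-chaperones and some chaperones whose names lie outside the rule. Among these last are TRAP1, the mitochondrial HSP90, at 0.21, HYOU1, an HSP110 relative of the endoplasmic reticulum, at 0.05 and SERPINH1, a collagen chaperone, at 0.33. They are thus not in the HSP family counts above. CRYAB, a small HSP, was dim (5.07 with clofibrate and 5.77 with DMSO), its clofibrate value below the random probes. The bright genes lay evenly, 17 below 0 and 17 above, with a median of -0.02, and none of them differed 1.5-fold. Among bright genes of any kind, 1.31% passed that step upward and 1.32% downward. A count of 0 in 34 genes is near these shares. HSF1 read 11.63 with clofibrate and 11.29 with DMSO on 1 row (0.34; SD 0.21). HSF4, a factor known from the lens, was at 0.48. AHSA1, the activator of HSP90 ATP hydrolysis, was at 0.38, and PPP5C, a phosphatase that binds HSP90, at 0.35. CLPB, a mitochondrial disaggregase, was at 0.40 with rows at 0.83 and -0.03. Lower were BAG5 (-0.54; rows at -0.89 and -0.20) and BAG2 (-0.34), which bind HSP70.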

How the data were processed

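RNA from the Panc1 cells was read on NimbleGen arrays of 1 colour, per the labels. The authors deposited intensities on a linear scale, with 1 value for each transcript row. RMA is the method named in the submitters' processing notes, with no version or settings. Per the file headers, 45031 rows summarise 3 probes each, and positions are on hg18. The deposited series table held the same values. RMA commonly makes array distributions equal, in which case a general rise or fall of RNA cannot be seen. The median row intensity was 401.7 on both arrays, so such a general shift cannot be seen here.

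Intensities were converted to log2. Current symbols and promoter windows came from RefSeq (GRCh38.p14), and 176 of 178 member rows matched by gene ID. The SD of genes of like level used 40 level bins. Named were the bright HSP genes, the 10 bright DNAJ genes furthest from 0, genes with a row 1.5-fold different, and HSF1 with the 6 other co-chaperones furthest from 0. Others in the text, such as HSPA5, DNAJB1, TRAP1 and CRYAB, were chosen after their values were seen. Members and lists were chosen with earlier results of these data known. Alternatives were other scalings, level filters, the choice of row and a pseudocount of 50. The calculations were tested on simulated data. Work was done in Python 3.11.15 (numpy 2.4.6, pandas 2.3.3, statsmodels 0.14.6; plots with matplotlib 3.10.9) and in R 4.3.3 with limma 3.58.1.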

Additional observations from a re-analysis of the deposited data

How the results depend on the processing

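No paired analysis was possible because only 1 array was made with clofibrate and 1 with DMSO, which also leaves no replicate to omit. The alternatives were centring, quantile normalization, loess on level, the brightest row of each gene, a pseudocount of 50, no filter on level, the 75th percentile of level, all names of the rule and, chosen after seeing the data, removal of the trend with gene span and removal of pseudogenes. Of 164 medians and counts recomputed, 150 stayed near their value, 9 moved and 5 changed sign, and no cause was tested. A median stayed near if its shift was below an error taken from the spread of its list. For lists of at most 3 genes the limit was the SD of genes of like level. A count stayed near within a factor of 1.5. Counted as near with brightest rows were the mitochondrial median (from -0.15 to -0.03), the class A median (from -0.25 to -0.10) and the DNAJ median (from -0.05 to -0.01). With the trend with gene span removed, the DNAJ median was 0.0042, the class C median 0.0124, the class B median 0.0269 and the endoplasmic reticulum median 0.0302. With brightest rows the HSP median was -0.29, the HSP70 median -0.23 and the median of other co-chaperones 0.0425. With no filter on level the HSP median was -0.11, the median of other co-chaperones -0.0651, 2 chaperone genes were 1.5-fold different and 21 DNAJ genes lay below 0, since more genes were counted. At or above the 75th percentile the median of other co-chaperones was 0.0279 and that of the endoplasmic reticulum -0.20. Without pseudogenes the HSP90 median was -0.32. The count of bright HSP genes below 0 was 19 to 21 under the scaling, row and span alternatives. Of 46 named genes, 8 moved by more than the SD of genes of like level with brightest rows (BAG5, CLPB, DNAJB7, DNAJC10, DNAJC12, DNAJC21, HSP90AA1 and HSPA6), 7 of the 46 changed sign there, and none did either under the centring, quantile or loess scalings. Signal near the random probes limits the dim members, and the number of arrays limits all precision.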

Other observations

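The rule also took genes whose old clone names only resemble those of heat shock proteins. Of these 16 genes 12 were bright, with 7 above 0 and 5 below and a median of 0.02. FMC1, an assembly factor of the mitochondrial ATP synthase, was highest among the bright ones, at 10.68 with clofibrate and 10.11 with DMSO (0.57; SD of genes of like level 0.22). BABAM1, of a deubiquitinase complex in DNA repair, was at 0.29 and LGALSL, a galectin-like protein, at -0.26. With these names and the 2 HSP-binding proteins included, the median of 58 bright genes was -0.08. HSPBP1, a nucleotide exchange factor of HSP70, was 0.25 higher with all 3 rows above 0. These genes were named after their values were seen.

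Dim members held values that the filter left out. Both rows of DNAJB9, an endoplasmic reticulum J-protein, read lower with clofibrate (5.38 and 4.73, against 5.90 and 5.27 with DMSO). On the clofibrate array both lay below the random probes. Both rows of HSPA12B, an HSP70 relative of endothelium, read higher (8.46 and 8.66, against 7.96 and 8.27 with DMSO), a gene difference of 0.44 with an SD of 0.35.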
